A study of Mus musculus with 18 samples.

Results

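CD8 T cells made from induced pluripotent stem cells on a stromal feeder layer were compared, gene by gene, with naive CD8 T cells taken from the spleen. The cells made in culture, titled Artificial CD8 by the submitters and called OP9 CD8 here, came from Pmel induced pluripotent stem cells that were differentiated on OP9-DL1. The reference, splenic CD8, was naive CD8+ T cells of transgenic mice, collected from the spleen and described as ex vivo. Each group had 5 libraries, so 10 of the 18 libraries of the series entered the comparison. The others came from CD4+CD8+ cells made on OP9-DL1, called DP, and from CD8+ cells of a 3D thymic culture, called iRTE. All cells were sorted on CD45, CD8, CD4 and TCRab after removal of cells positive for NK1.1, TCRgd or CD11c. The labels name 1 source of stem cells, no treatment, and no age, strain or number of mice. Whether the replicates were separate cultures or mice is not stated, so every p-value measures only the spread between these libraries. The growth field of the splenic samples also reads OP9-DL1, although their tissue is given as spleen, and the tissue was followed here.

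OP9-DL1 is a mouse bone marrow stromal line that carries the Notch ligand Delta-like 1. Blood progenitors placed on it receive the Notch signal that the thymus normally supplies, rearrange their T-cell receptor genes and pass through a CD4+CD8+ stage. In the thymus, a CD8 cell that has been positively selected then stops expressing the recombinase, regains the interleukin-7 receptor, and turns on the receptors that let it leave for the blood and lymphoid organs. A naive CD8 cell in the spleen is quiescent, rich in MHC class I, and held in that state by a set of transcription factors and growth inhibitors. Pmel cells carry a rearranged receptor for a melanocyte antigen, which they bring with them whether they come from a mouse or from reprogrammed cells.

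The OP9 CD8 libraries held 15953400 to 19305800 counts, the splenic libraries 11132800 to 17671900, and 16533 to 17271 and 16864 to 17437 genes had a count. Genes encoded in mitochondrial DNA took 1.4% to 1.91% of counts against 0.592% to 0.9%. Of the variance between the 10 libraries, 85.9% lay along a first principal component, which separated the groups. A second component took 3.20%, and on it OP9 CD8 replicate 5 stood at -50.4 while the other 4 OP9 CD8 libraries stood at 6.92 to 21.6, so counts of changed genes are given with and without that library. The 2 groups also differed in sex-linked transcripts. The Y-linked gene Ddx3y stood at 63.8, 64.3, 84.01, 57.9 and 56.6 CPM in OP9 CD8, Eif2s3y and Uty averaged 58.7 ± 3.61 and 54.6 ± 6.21 CPM, and none of these had a count in any splenic library, while Xist, the RNA of the inactive X chromosome, averaged 1.72 ± 0.993 CPM in OP9 CD8 and 99.7 ± 17.4 in splenic CD8. CPM are a gene's counts relative to the size of its library, after scaling by the trimmed mean of M values, and ± after a CPM is the SD over 5 libraries throughout. Sex, source of the cells, culture and organ therefore cannot be told apart in this comparison. Fewer cells of a type and less RNA per cell cannot be told apart in bulk RNA either.

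Of 12795 genes with enough counts to test, 4755 were higher in OP9 CD8 and 4963 were lower at an adjusted p under 0.05 in edgeR's quasi-likelihood test. That is 37.2% and 38.8% of genes tested, 76.0% together, against which the count for each gene group below has to be read. At least 2-fold changes were called for 2212 genes that were higher and 2541 that were lower, 17.3% and 19.9%. The values of the 2 groups did not overlap for 4063 higher genes (31.8%) and 4184 lower genes (32.7%), 64.5% together. At least 8-fold changes were called for 648 higher and 454 lower genes. The median log2 change over all genes tested was -0.04. Without OP9 CD8 replicate 5, 4853 genes were higher and 4918 lower. Among the called genes, 214 of the higher had under 10 splenic counts in all and 153 of the lower under 10 OP9 CD8 counts, and these were tested only through the group where they are high. In what follows a gene is called higher or lower only when it passed this threshold, a change is the fitted log2 ratio of OP9 CD8 to splenic CD8, and ± after a change is the SE of the difference in log2 CPM.

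**Figure D1:**
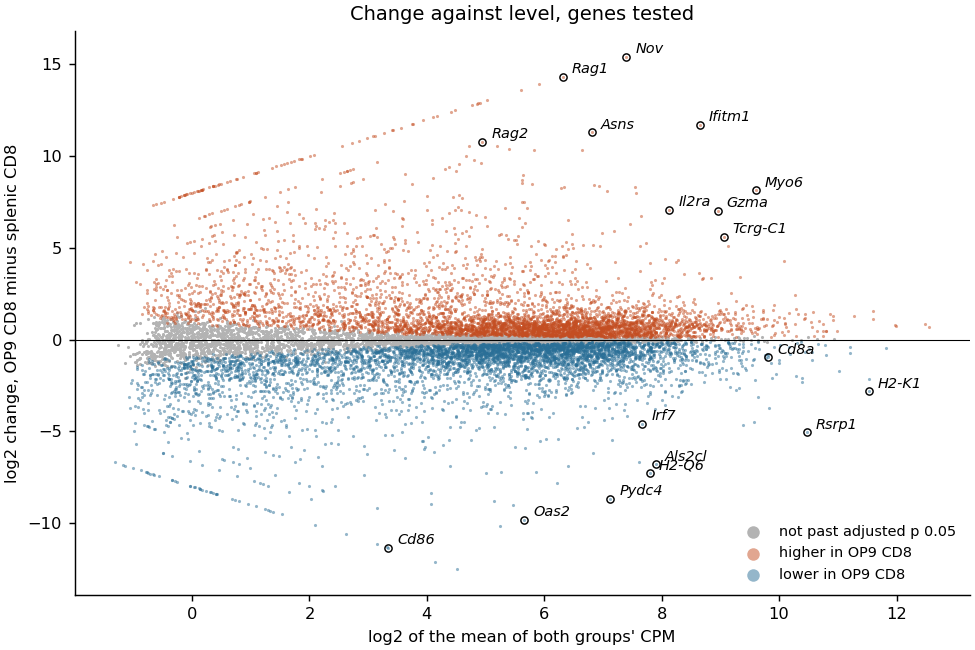
Each point is 1 of the 12795 genes tested, with the log2 of the mean CPM of both groups on the x axis and the fitted log2 change (OP9 CD8 minus splenic CD8) on the y axis. The 4755 genes higher in OP9 CD8 are orange, the 4963 lower genes blue and the 3077 others grey, and the circled genes are described in the text. Genes with no count in splenic CD8, such as Nov and Rag1, lie at the top, and their fitted change depends on a prior count.

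The genes with the largest rise had no count in any of the 5 splenic libraries. Nov, a secreted matricellular protein, stood at 329, 351, 327, 311 and 369 CPM in the 5 OP9 CD8 libraries. Taking 3 counts per library as the least that could be told from none, Nov was at least 1601-fold higher in OP9 CD8. The next was Rag1, a subunit of the V(D)J recombinase, described below. On the same floor Syt13, a synaptotagmin, was at least 568-fold higher, Gnai1, an inhibitory G-protein subunit, at least 463-fold, Prss57, a serine protease of granules, at least 283-fold, and Lipg, an endothelial lipase, at least 276-fold. The imprinted RNA H19, the inflammasome sensor Nlrp6 and the calcium-binding protein Necab1 were at least 212-fold, 201-fold and 172-fold higher, and the 3 Y-linked genes named above complete the 12 largest rises. Only genes whose values did not overlap between the groups entered this ranking. With no splenic count, these genes were tested only because they were high in OP9 CD8.

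Among the largest falls, 4 genes had no count in any OP9 CD8 library. Xlr3b, of an X-linked lymphocyte-regulated family with near-identical members, was at 33.6, 41.3, 31.4, 36.8 and 33.5 CPM in splenic CD8, at least 199-fold above the floor. Cd86, a ligand of Cd28 and Ctla4, averaged 20.2 ± 2.11 CPM in splenic CD8 (at least 114-fold lower in OP9 CD8), Tdgf1, a cell surface coreceptor active in the early embryo, 19.9 ± 1.85 CPM (at least 112-fold), and Aqp3, a water and glycerol channel, 12.3 ± 1.51 CPM (at least 69.4-fold). Tmie, first known from the inner ear, fell from 75.7 ± 3.17 to 0.0642 ± 0.144 CPM, and Gabrr2, a GABA receptor subunit, from 33.6 ± 4.87 to 0.0636 ± 0.142 CPM. Pydc4, a pyrin-domain gene of the interferon-inducible cluster, averaged 279 ± 17.7 CPM in splenic CD8 and 0.717 ± 0.782 in OP9 CD8, a change of -8.65 ± 0.73. Ramp3, a receptor-modifying protein, had 3 counts in all OP9 CD8 libraries together, a ratio of 309 with a 95% counting interval of 105 to 1500.5. The other members of the 12 largest falls were the interferon-induced Oas2 and Mx2 and the globin genes Hbb-bs and Hba-a1, which are described with their groups.

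The genes with the smallest adjusted p-values were led by abundant surface and receptor genes. In OP9 CD8 these were Tcrg-C2, Il2ra, Cd163l1, Myo6, Tcrg-C1 and Ccl5, with adjusted p between 3.60e-19 and 2.16e-18. Myo6, the myosin that moves towards the minus end of actin, stood at 1676, 1557, 1682, 1475 and 1378 CPM in OP9 CD8 and at 6.92, 6.64, 4.5, 4.42 and 4.996 CPM in splenic CD8, a change of 8.13 ± 0.15. Among lower genes they were Rsrp1, Tsc22d3, Gramd1a, Irf7, H2-Q6 and H2-Q7, with adjusted p between 2.10e-18 and 2.27e-17. Rsrp1, an arginine- and serine-rich protein, stood at 82.6, 88.3, 91.3, 73.8 and 81.3 CPM in OP9 CD8 against 2718, 2637, 2546, 2885 and 2956 CPM in splenic CD8. Tsc22d3, also known as GILZ and induced by glucocorticoids and Foxo factors, fell by 3.73 on the log2 scale to 127 ± 8.69 CPM, and Gramd1a, a carrier of cholesterol between membranes, changed by -4.49 ± 0.08. For all of these the groups stood far apart, which a choice by adjusted p favours.

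The genes of the T-cell receptor complex and its proximal kinases were present in both groups and mostly lower in OP9 CD8. Of 40 members tested, 27 were lower and 8 higher, with a median change of -0.50. Cd8a, the chain that binds Lck, stood at 590.5, 590.1, 607, 585 and 670.1 CPM in OP9 CD8 and at 1182, 1122, 1172, 1219 and 1270.0 CPM in splenic CD8. Its values did not overlap, and the change was -0.97 ± 0.05 with an adjusted p of 1.58e-11. Cd8b1, the beta chain of the coreceptor, changed by a similar amount, from 2074 ± 67.6 to 957 ± 95.3 CPM (-1.12 ± 0.07). Cd3e, a signalling chain of the receptor, differed little, at 755 ± 31.8 CPM against 845 ± 16.02 (-0.16 ± 0.03), and the kinase Lck was at 1976 ± 111 against 1956 ± 109 CPM, with a change of 0.01 ± 0.05 that did not pass the threshold (adjusted p = 0.80). Larger falls were seen in the phosphatase-like Ubash3a (-1.93 ± 0.05) and the phospholipase Plcg1 (-1.72 ± 0.07), which act further along the pathway. Ubash3a averaged 62.6 ± 4.23 CPM in OP9 CD8 and 239 ± 7.48 in splenic CD8. Its relative Ubash3b rose from 8.2 ± 1.53 to 26.6 ± 8.84 CPM, the adaptor Sla from 215 ± 13.1 to 439 ± 25.1 CPM and the costimulatory receptor Cd28 from 37.3 ± 4.38 to 62.2 ± 4.64 CPM.

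All 14 defining markers of CD8 T cells had enough counts to test, 4 of them higher and 8 lower. Each was expressed in both groups: the lowest mean was 58.5 CPM in OP9 CD8 (Cd5) and 44.1 in splenic CD8 (Thy1). The alpha constant gene Trac averaged 519 ± 25.4 CPM in OP9 CD8 and 595 ± 62.2 in splenic CD8 (-0.20 ± 0.07), and the beta constant gene Trbc2 7401 ± 254 against 4608 ± 286 (0.68 ± 0.05). Thy1, a surface glycoprotein of T cells that the stromal list also holds, was higher (1.72 ± 0.07), as was the adhesion molecule Cd2 (0.50 ± 0.06), and Cd5, a brake on receptor signalling, was lower (-0.80 ± 0.04). The beta variable segments summed to 7338 to 8078 CPM per OP9 CD8 library and 3945 to 4535 CPM per splenic library. A single segment, Trbv14, took 97.5% to 97.8% of that sum in OP9 CD8 and 95.04% to 95.4% in splenic CD8. Both groups thus expressed 1 dominant beta chain segment, the same in each. Alpha variable segments summed to 70.2 to 78.97 CPM and 121 to 134 CPM.

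The recombinase genes were expressed in OP9 CD8 and all but missing from splenic CD8. Rag1 stood at 167, 155, 176, 156 and 141 CPM in the 5 OP9 CD8 libraries and had no count in splenic CD8, so that it was at least 753-fold higher. Rag2, the second subunit, stood at 63.7, 56.9, 59.03, 56.6 and 70.7 CPM in OP9 CD8 and had 2 counts over the 5 splenic libraries, a ratio of 2242 with a 95% counting interval of 620.3 to 18518. Ptcra, the surrogate alpha chain used before the alpha gene is rearranged, averaged 21.6 ± 5.7 CPM and had no splenic count (at least 102-fold higher). Dntt, the polymerase that adds bases to the joins, was found in both groups, at 75.1, 74.1, 59.6, 76.01 and 90.7 CPM in OP9 CD8 and 40.5, 41.2, 41.9, 40.8 and 38.9 CPM in splenic CD8, and its change was 0.89 ± 0.10. Every OP9 CD8 value of Dntt lay above every splenic value. The end-joining genes went both ways. The ligase gene Lig4 was higher, at 83.8 ± 7.58 CPM against 12.6 ± 2.84 (2.73 ± 0.15), as were the Ku subunits Xrcc6 (1.75 ± 0.06) and Xrcc5 (0.62 ± 0.07), while the kinase gene Prkdc was lower (-1.07 ± 0.10), with Xrcc4 (-0.84 ± 0.17) and the polymerase Polm (-0.84 ± 0.19). In all 9 of 15 rearrangement genes were higher and 5 lower. Rag1, Rag2 and Ptcra, 3 of the 9, had under 10 splenic counts in all and were tested only because they were high in OP9 CD8.

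Many genes that mark immature thymocytes were also high in OP9 CD8. Of 38 tested, 23 were higher and 11 lower, with a median change of 0.86. Among the 23, 3 had under 10 splenic counts in all and were tested only because they were high in OP9 CD8. Cd24a, a glycoprotein lost as thymocytes mature, stood at 430.0, 414, 373, 381 and 388 CPM in OP9 CD8 and at 2.79, 2.99, 5.3, 4.23 and 3.51 CPM in splenic CD8. Ccr4, a chemokine receptor gained on positive selection, averaged 54.3 ± 6.17 CPM against 2.73 ± 1.61 (4.31 ± 0.37). The largest rises in the group were in Tox2, an HMG-box factor (84.1 ± 5.61 against 0.0612 ± 0.062 CPM), Endou, an endoribonuclease (231 ± 15.3 against 0.671 ± 0.355 CPM), and Dgkeos (47.99 ± 4.74 against 0.207 ± 0.225 CPM), an antisense gene whose reads cannot be told from its partner's without strand. Cd4 itself was low but present in OP9 CD8, at 2.73, 4.11, 1.97, 4.6 and 9.55 CPM, and had 3 counts over the splenic libraries, a ratio of 115 with a 95% counting interval of 39.2 to 561. The list did not move as a block: Cd1d1, the MHC-like ligand shown by CD4+CD8+ cells, was lower in OP9 CD8 (-2.05 ± 0.07), as were Spo11 (-4.53 ± 0.17), a meiotic topoisomerase-like gene transcribed in the thymus, and the repressor Bcl6 (-1.31 ± 0.33).

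**Figure D2:**
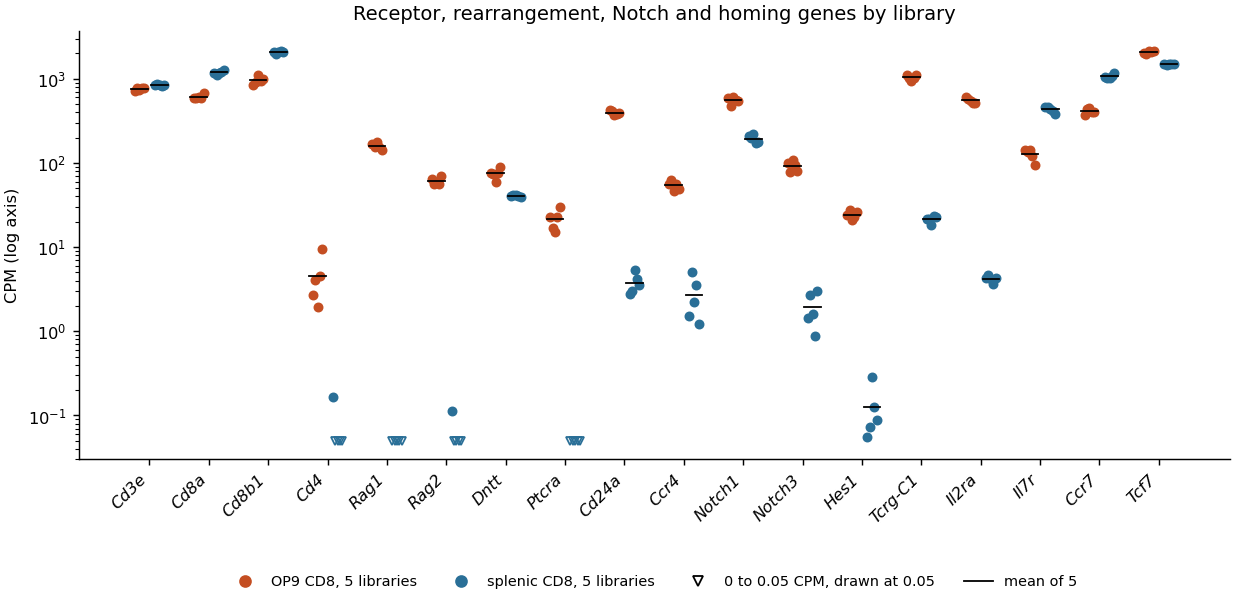
CPM on a log axis for 18 genes, with the 5 OP9 CD8 libraries in orange, the 5 splenic CD8 libraries in blue and a black line at each group's mean where that is above 0.05 CPM. Open triangles at 0.05 CPM stand for values from 0 to 0.05. Rag1 and Ptcra have no count in splenic CD8, Cd24a, Notch3 and Il2ra lie far apart in the groups, and Cd3e lies close together.

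Notch signalling is what OP9-DL1 supplies, and a part of its receptors and targets was higher in OP9 CD8. Of 25 genes tested, 13 were higher and 7 lower, and the median change was 0.18. Of the 13, 3 had under 10 splenic counts in all and were tested only because they were high in OP9 CD8. The share of higher genes is therefore not set against the background of 37.2%. The receptor Notch3 averaged 92.4 ± 12.6 CPM in OP9 CD8 against 1.92 ± 0.889 in splenic CD8 (5.64 ± 0.31), and Notch1 stood at 584, 475, 608, 557 and 548 CPM against 209.6, 199, 219, 173 and 176 CPM (1.51 ± 0.09). Hes1, the repressor gene that Notch switches on directly, averaged 24.3 ± 2.62 CPM against 0.126 ± 0.0952 (7.53 ± 0.22). Dtx1, another direct target, did not pass the threshold, with 499.7 ± 40.1 CPM in OP9 CD8 and 461 ± 26.7 in splenic CD8 (adjusted p = 0.0846), although it did without OP9 CD8 replicate 1 or 2, at 0.16 and 0.17. The lower members included the coactivator Maml2 (-2.59 ± 0.21), the glycosyltransferase Rfng (-1.57 ± 0.08) and the Notch inhibitor Numb (-1.11 ± 0.13).

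Il2ra, the high-affinity chain of the interleukin-2 receptor and a target of both Notch and cytokine signals, was among the genes that differed most clearly. It stood at 608, 583, 547, 519 and 519 CPM in OP9 CD8 and at 4.3, 4.67, 4.14, 3.61 and 4.29 CPM in splenic CD8, a change of 7.05 ± 0.07 with an adjusted p of 3.60e-19. The other chains of that receptor did not follow it: Il2rb averaged 531 ± 40.2 CPM against 545 ± 25.2 (adjusted p = 0.57), and the common gamma chain Il2rg was lower (-0.74 ± 0.05). Il7r, which binds interleukin-7, the survival factor of naive cells, stood at 144, 136, 141, 123 and 94.5 CPM in OP9 CD8 and at 467, 459, 437, 413 and 384 CPM in splenic CD8 (-1.76 ± 0.12). Il9r averaged 19.2 ± 2.11 CPM in OP9 CD8 and had no splenic count (at least 91.3-fold higher), and Socs2, a feedback inhibitor induced through Stat5, averaged 98.4 ± 7.46 CPM against 0.242 ± 0.158 (8.67 ± 0.25). Il27ra (-2.45 ± 0.05), its partner Il6st (-2.51 ± 0.16) and the interferon-gamma receptor chain Ifngr2 (-1.95 ± 0.09) were lower. Over the whole list of 41 cytokine receptor and JAK-STAT genes, 16 were higher and 19 lower, close to the background.

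Transcripts of the gamma chain genes were abundant in OP9 CD8 although the sort excluded cells with a gamma-delta receptor. Tcrg-C1 stood at 1113, 1024, 932, 1023 and 1121 CPM in OP9 CD8 and at 21.7, 21.5, 18.1, 23.2 and 23.1 CPM in splenic CD8. The 4 constant genes together summed to 2401 to 2816 CPM against 105 to 121. Their changes were 5.60 ± 0.08 for Tcrg-C1, 5.10 ± 0.04 for Tcrg-C2, 8.95 ± 0.13 for Tcrg-C3 and 2.75 ± 0.07 for Tcrg-C4, and because the genes are near copies of each other the split between them is uncertain. The scavenger receptor gene Cd163l1, known from gamma-delta T cells, averaged 2067 ± 122 CPM against 108 ± 6.11 (4.25 ± 0.05). Not every gene of that lineage followed: Sox13, a factor of gamma-delta cells, was at 4.3 ± 1.39 against 5.9 ± 1.15 CPM (adjusted p = 0.10, but called lower, at -0.58, without OP9 CD8 replicate 5), and 5830411N06Rik, a second scavenger receptor gene of that lineage, was lower (-4.29 ± 0.26). Ly6c2 (-0.81 ± 0.08) and Cd27 (-0.70 ± 0.07) were lower as well. In all, 14 of 19 genes were higher, with a median change of 3.53. Most of the 14 were constant or variable segments of the gamma chain genes, so the count and median largely repeat that signal. Among the 14, 1 had under 10 splenic counts in all and was tested only because it was high in OP9 CD8.

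The genes that let T cells leave the thymus and enter lymph nodes were expressed in both groups. S1pr1, the receptor that draws cells into blood and lymph, stood at 483, 511, 611, 528 and 528 CPM in OP9 CD8 and at 586, 568, 591, 592 and 577 CPM in splenic CD8, values that overlapped. Its change of -0.13 ± 0.06 had an adjusted p of 0.0452, and it no longer passed with OP9 CD8 replicate 1, 2, 4 or 5 or splenic replicate 1, 3 or 4 left out, at -0.13 to -0.08. Klf2, the factor that drives S1pr1, was at 462 ± 62.01 against 466 ± 27.4 CPM (adjusted p = 0.90). Ccr7, the receptor that brings naive cells into the T zone, was lower, at 372, 440.4, 444, 406 and 402 CPM against 1037, 1013, 1035, 1080.3 and 1187 CPM (-1.37 ± 0.06). Cd69, which holds S1pr1 inside the cell after activation, was lower in OP9 CD8 by a wider margin, at 25.3, 17.4, 18.6, 17.8 and 17.2 CPM against 264, 269, 233, 257 and 259.8 CPM (-3.74 ± 0.11). The oxysterol receptor Gpr183 (-3.83 ± 0.35) and Gpr18 (-2.30 ± 0.10) were also lower. Ccr2, a receptor for inflammatory chemokines, was higher, at 11.8 ± 1.32 CPM against 0.477 ± 0.654 (4.65 ± 0.83). Of 34 egress and homing genes tested, 12 were higher and 18 lower.

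Most genes of the naive and quiescent state were lower in OP9 CD8. Of 43 members, all of them tested, 37 were lower in OP9 CD8 and 4 higher, with a median of -1.11. The 4 transcription factors that head the list split. Tcf7, the gene of TCF-1, was higher in OP9 CD8, at 2023, 1974, 2122, 2097 and 2125 CPM against 1485, 1445, 1491, 1498 and 1488 CPM (0.48 ± 0.02). Its relative Lef1 was lower (-0.92 ± 0.07), as were Foxo1 (-0.77 ± 0.09), which sustains Il7r, and Foxp1 (-0.72 ± 0.06), which holds naive cells quiescent. The largest fall was in Als2cl, a homologue of the exchange factor alsin, at 2.29, 4.17, 2.03, 5.02 and 7.4 CPM in OP9 CD8 and 484, 453, 506, 463 and 464 CPM in splenic CD8 (-6.79 ± 0.34). Dapl1, a death-associated protein homologue, changed by -4.46 ± 0.22, and Fam101b, an actin regulator, by -4.21 ± 0.16. The exceptions included Foxp3, better known as the factor of regulatory T cells than as a naive gene, at 28.9, 28.6, 28.8, 30.3 and 33.2 CPM in OP9 CD8 against 1.17, 2.99, 2.4, 0.934 and 2.02 CPM (4.004 ± 0.30), the antiproliferative Tob1 (0.70 ± 0.08) and the deadenylase subunit Cnot2 (0.50 ± 0.05).

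The cytotoxic genes did not move together. Gzma, a granzyme of killer cells, stood at 1082, 984, 882, 1008 and 971 CPM in OP9 CD8 and at 7.42, 9.13, 6.1, 5.54 and 10.6 CPM in splenic CD8, a change of 7.01 ± 0.18. Gzmb rose from 2.43 ± 0.326 to 54.2 ± 11.8 CPM (4.48 ± 0.17), and the chemokine Ccl5 from 1.43 ± 0.297 to 376 ± 35.7 CPM (7.998 ± 0.15). Prf1, the pore-forming perforin without which granzymes do not enter the target, was lower, at 11.5, 16.2, 11.2, 13.6 and 10.9 CPM in OP9 CD8 against 57.5, 59.5, 63.95, 61.01 and 79.9 CPM in splenic CD8 (-2.34 ± 0.14). The granule protease Ctsw (-2.47 ± 0.08) and Lyst (-1.88 ± 0.15), which is needed for granule traffic, were lower too. Ifng was too low to test in either group, at 0.482 ± 0.209 and 0.0292 ± 0.0653 CPM. The interleukin-12 receptor chain Il12rb2 averaged 134 ± 9.6 CPM against 5.84 ± 1.78 (4.54 ± 0.23). Of 28 genes tested 15 were higher and 9 lower.

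Several transcription factors of effector and innate-like T cells were higher in OP9 CD8, and 19 of 33 tested passed in that direction against 10 in the other. Tbx21, the gene of T-bet, averaged 16.8 ± 3.3 CPM against 2.68 ± 0.618 (2.65 ± 0.18) and its relative Eomes 47.2 ± 11.9 against 8.63 ± 2.58 (2.46 ± 0.27). Bhlhe40 (6.61 ± 0.42) and Runx2 (4.08 ± 0.26) had larger rises. Zbtb16, the gene of PLZF, which directs innate-like lineages, was at 11.4 ± 3.35 against 1.89 ± 0.402 CPM (2.58 ± 0.25). Zeb2 was called higher (2.86 ± 0.92) from low and overlapping values, 1.75 ± 1.04 and 0.234 ± 0.338 CPM. Id2, an inhibitor of E proteins that effector cells raise, was lower (-1.42 ± 0.09), as was Rora (-0.94 ± 0.28).

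Among receptors of natural killer cells, Klrc1, the inhibitory NKG2A chain, averaged 17.8 ± 1.85 CPM in OP9 CD8 with 1 count over the splenic libraries (a ratio of 1295 with a 95% counting interval of 232 to 51191), and Klra5, of the Ly49 family, averaged 12.4 ± 2.83 CPM, also with 1 splenic count (a ratio of 904 with a 95% counting interval of 162 to 35739). Klrd1, the CD94 chain with which Klrc1 pairs, was lower (-0.85 ± 0.06), and the activating receptor Klrk1 did not pass, at 2.92 ± 0.945 against 2.33 ± 0.653 CPM (adjusted p = 0.36). The signalling chain Fcer1g was higher (2.58 ± 0.26), as was the adhesion receptor Slamf7 (2.60 ± 0.33). The activating receptors Cd226 (-3.61 ± 0.14) and Crtam (-3.46 ± 0.18) and the adaptor Hcst (-1.03 ± 0.09) were lower. In total 13 of 23 genes tested were higher and 6 lower, and 15 were too low to test. Of the 13, 5 had under 10 splenic counts in all and were tested only because they were high in OP9 CD8, so that count is no measure of the list. NK1.1-positive cells had been removed by the sort.

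The inhibitory receptors Pdcd1 and Ctla4 were both higher in OP9 CD8. Pdcd1, the gene of PD-1, stood at 176, 176, 161, 162 and 187 CPM against 4.3, 4.23, 5.3, 3.92 and 5.87 CPM in splenic CD8 (5.204 ± 0.11), and Ctla4 averaged 126 ± 8.65 CPM against 3.56 ± 0.465 (5.15 ± 0.10). Tigit was higher from a low level, 3.01 ± 1.35 CPM against 0.29 ± 0.135 (3.35 ± 0.40). Lag3 could not be tested, at 0.0106 ± 0.0236 and 0.0583 ± 0.0952 CPM. The T and NK cell receptor Cd7 rose from 90.01 ± 5.9 to 296 ± 29.8 CPM (1.72 ± 0.08). The ligand PD-L1, encoded by Cd274, was lower in OP9 CD8 (-2.96 ± 0.21), as was the death-domain receptor Tnfrsf25 (-6.47 ± 0.53). Over the list, 10 of 31 genes were higher and 16 lower, with a median of -0.67.

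Genes that report recent signalling through the T-cell receptor were lower more often than higher. Of 29 tested, 18 were lower and 9 higher, with a median change of -0.91. Egr1, an early growth response factor, stood at 10.6, 15.7, 13.6, 12.9 and 8.75 CPM in OP9 CD8 and at 56.9, 57.6, 57.9, 66.1 and 54.5 CPM in splenic CD8 (-2.25 ± 0.15). Egr2 (-3.85 ± 0.38) and the Egr corepressor Nab2 (-4.24 ± 0.14) fell further. Nr4a1, the gene of Nur77, whose level follows receptor signal strength, did not pass, at 16.7 ± 2.86 against 18.7 ± 3.48 CPM (adjusted p = 0.32). The phosphatases Dusp4 (4.99 ± 0.40) and Dusp5 (1.83 ± 0.10), which switch off MAP kinases, were higher. Immediate early genes, which tissue handling can also raise, were lower in 15 of 24 cases and higher in 5. Jun (-1.31 ± 0.17), Junb (-1.05 ± 0.08), Gadd45b (-3.71 ± 0.19) and Ppp1r15a (-1.78 ± 0.13) were lower, and Jund (1.23 ± 0.10), Dusp1 (0.87 ± 0.10) and the chaperone Hsp90aa1 (1.37 ± 0.06) were higher. Fos was at 2.47 ± 0.913 against 3.67 ± 0.153 CPM (adjusted p = 0.1), and Fosb was too low to test.

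The interferon-induced genes of the list used here were almost uniformly lower in OP9 CD8. That list leaves out Ifitm1, Ifitm2 and Ifitm3, which interferon also induces and which were higher, as described below. Of 58 tested, 55 were lower and 2 higher, against 38.8% and 37.2% of all genes, and 51 were at least 2-fold lower. Of the 55, 3 had under 10 OP9 CD8 counts in all and were tested only because they were high in splenic CD8. The median change was -1.96. Irf7, the factor that amplifies type I interferon, stood at 17.4, 14.8, 18.3, 13.6 and 16.7 CPM in OP9 CD8 and at 388, 384, 376, 399 and 410.1 CPM in splenic CD8, a change of -4.60 ± 0.08 with an adjusted p of 1.57e-17. Ifit1, which binds foreign RNA caps, averaged 3.08 ± 1.33 CPM against 224 ± 6.19 (-6.17 ± 0.29), and the ubiquitin-like Isg15 8.54 ± 0.978 against 54.9 ± 3.84 (-2.68 ± 0.08). Of the antiviral enzymes, Oas2 stood at 0.127, 0.321, 0, 0 and 0.107 CPM in OP9 CD8 against 116, 91.2, 109, 101 and 88.3 CPM, Oasl1 changed by -7.29 ± 0.65, and Mx2 had 2 counts in all OP9 CD8 libraries, with a ratio of 753 with a 95% counting interval of 208 to 6228. The 2 genes of this list that were higher, Lgals3bp (0.30 ± 0.05) and the immunoproteasome subunit Psmb8 (0.20 ± 0.06), changed by little. Erythroid, B-cell and other markers that also differed between the groups are given further on.

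Promoters of this group are shown because the motif that interferon-activated factors bind was present in most of them. The core of the interferon-stimulated response element, TTTC followed by 2 bases of any kind and another TTTC, was searched on both strands in 300 bases around each gene's start (250 before, 50 after) in the RefSeq annotation of GRCm38.p6. It occurred in 27 of 44 interferon genes with a promoter in that table (61.4%), against 3.83% of the 8877 tested genes with a promoter and 3.44% of all 32851 promoters. The list was made of genes known to respond to interferon, so the share describes the list and was no test. For Ifit1 (chr19:34640689-34640888, plus strand) and Ifit3 (chr19:34583329-34583528, plus strand), the last 200 bases before the start are printed, with the motif in capitals. Ifit1 held matches that began 104 and 85 bases before the start, and Ifit3 at 156 and 122 bases. Ifit3, chosen to stand beside Ifit1 after its values were seen, averaged 1.42 ± 1.04 CPM in OP9 CD8 and 169 ± 16.5 in splenic CD8 (-6.88 ± 0.50).
Ifit1: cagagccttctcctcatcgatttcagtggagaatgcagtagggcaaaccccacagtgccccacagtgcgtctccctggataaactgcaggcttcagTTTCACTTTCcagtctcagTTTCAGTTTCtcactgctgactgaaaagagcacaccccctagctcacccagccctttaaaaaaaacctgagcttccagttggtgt
Ifit3: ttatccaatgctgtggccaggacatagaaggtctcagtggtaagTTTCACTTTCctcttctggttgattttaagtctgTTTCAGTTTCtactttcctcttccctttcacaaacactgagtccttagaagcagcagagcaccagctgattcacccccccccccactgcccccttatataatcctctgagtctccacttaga

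MHC class I genes were lower as a group. H2-K1, a classical class I heavy chain, stood at 678, 710.1, 748, 736 and 805 CPM in OP9 CD8 and at 5072, 4906, 5068, 5189 and 5545 CPM in splenic CD8, a change of -2.81 ± 0.05. H2-D1 averaged 1095 ± 80.5 CPM against 4793 ± 393 (-2.13 ± 0.07) and B2m, the light chain shared by all class I molecules, 1265 ± 62.2 against 2289.7 ± 197 (-0.86 ± 0.07). Nlrc5, the transactivator of class I genes, stood at 77.5, 75.3, 73.2, 82.2 and 78.02 CPM against 596, 581, 619.6, 553 and 475 CPM (-2.87 ± 0.07). The nonclassical genes fell furthest: H2-Q6 from 441 ± 15.1 to 2.88 ± 0.935 CPM, H2-Q7 from 1284 ± 23.2 to 51.8 ± 7.26 and H2-T10 from 104 ± 10.1 to 5.69 ± 0.747. Heavy chain genes are near copies of each other and vary between mouse strains, and the strain of either source is not given in the labels, so values of single H2 genes are uncertain. Of 27 class I and peptide-loading genes tested 20 were lower and 6 higher, with a median of -1.44. The higher ones were led by general chaperones of the endoplasmic reticulum, Canx (1.48 ± 0.08), Calr (1.47 ± 0.04) and Pdia3 (0.82 ± 0.05). The response element core was found in 5 of 22 promoters of this list (22.7%).

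Most genes of several families that mature lymphocytes express were lower as well. Among 28 tested Gimap, Ms4a, Schlafen and Ly6 genes, 25 were lower and 3 higher, with a median of -1.32. Slfn1, a Schlafen gene of quiescent T cells, stood at 2.48, 3.34, 3.82, 4.6 and 4.78 CPM in OP9 CD8 and at 415, 366, 362, 419 and 388 CPM in splenic CD8 (-6.66 ± 0.17). Slfn8 (-4.15 ± 0.17), Ms4a4c (-3.60 ± 0.12), Gimap6 (-1.81 ± 0.06), of a GTPase family needed for lymphocyte survival, and Ms4a4b (-1.13 ± 0.06) were lower, and so was Ly6c1 (-1.78 ± 0.37). Ly6d, an early lymphoid marker, went the other way, at 127 ± 3.65 CPM against 6.46 ± 1.12 (4.29 ± 0.12), with Slfn3 (1.51 ± 0.17) and Ly6e (0.37 ± 0.03).

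The Ifitm genes moved against the rest of the interferon-induced genes. Ifitm1, a membrane protein that blocks virus entry and is also expressed in early embryonic and progenitor cells, stood at 687, 828, 737, 827 and 923 CPM in OP9 CD8 and at 0, 0, 0, 0 and 1.49 CPM in splenic CD8 (11.69 ± 0.74). Ifitm2 averaged 114 ± 17.8 CPM against 0.1 ± 0.191 (10.29 ± 0.43) and Ifitm3 58.6 ± 8.21 against 2.55 ± 0.764 (4.49 ± 0.20), while Ifitm10 was lower (-1.11 ± 0.19). The calcium-binding S100a4 averaged 79.5 ± 12.1 CPM against 0.562 ± 0.215 (7.15 ± 0.24). Cd9 (-1.89 ± 0.32), a tetraspanin, and Spn (-1.11 ± 0.05), the sialomucin CD43, were lower. Of 29 genes tested in the Ifitm, S100, galectin and annexin list, 21 were higher and 6 lower, with a median of 0.86.

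**Figure D3:**
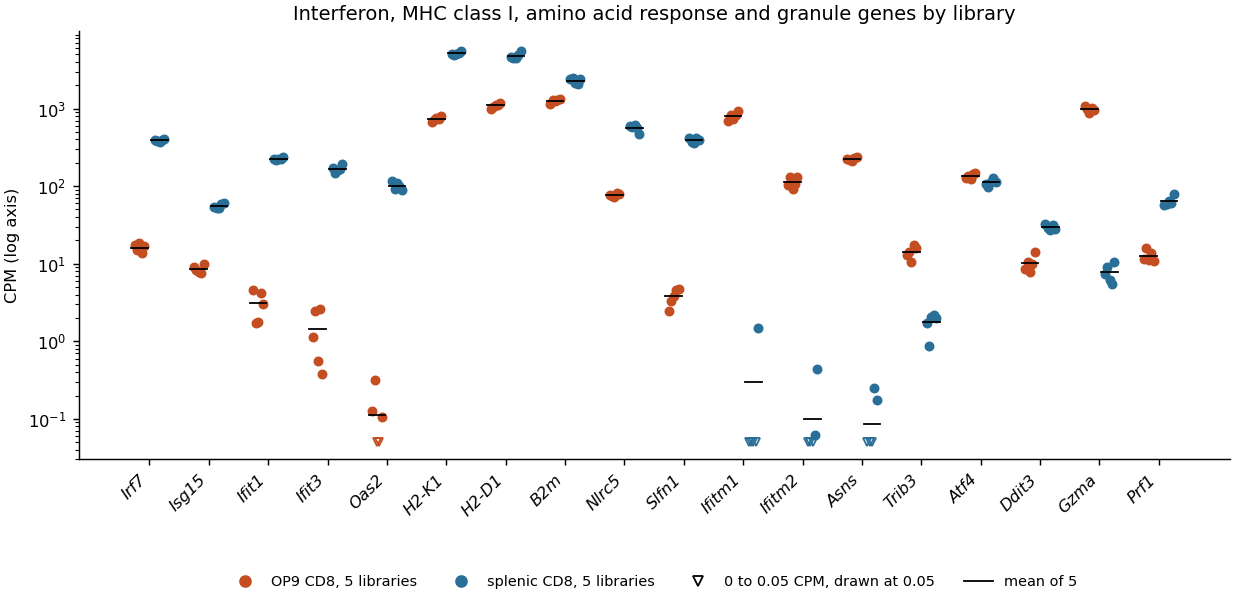
CPM on a log axis for 18 genes in the 5 OP9 CD8 libraries (orange) and the 5 splenic CD8 libraries (blue), with a black line at each mean and open triangles at 0.05 CPM for values from 0 to 0.05. Irf7, Ifit1, Oas2, the H2 genes and Slfn1 lie lower in OP9 CD8, Ifitm1, Ifitm2, Asns and Gzma higher, and Prf1 runs against Gzma.

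Every gene of DNA replication was higher in OP9 CD8, 45 of 45 tested, with no overlap between the groups for any of them and a median change of 2.36. Mcm2, a subunit of the replicative helicase, stood at 550.0, 494, 492, 569 and 528 CPM against 100.4, 102, 100.5, 111 and 99.1 CPM in splenic CD8 (2.36 ± 0.05). Pcna, the sliding clamp, changed by 1.64 ± 0.07, the S-phase factor E2f1 by 2.42 ± 0.15 and Rrm2, the regulated subunit of ribonucleotide reductase, by 4.22 ± 0.11. The largest rises were in Mcm10 (5.41 ± 0.23), Gins2 (4.44 ± 0.20) and Uhrf1 (4.35 ± 0.10). The E2F site, searched as TTTCCCGC or TTTGGCGC, lay in 12 of 38 of their promoters (31.6%), against 3.67% of tested genes. The list was made of known replication genes, so the share describes the list and was no test.

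Genes of G2 and mitosis moved the same way, 42 of 44 higher and 1 lower, with a median of 3.37. Ccnb1, the mitotic cyclin, stood at 259.7, 265, 200.2, 215 and 257 CPM in OP9 CD8 and at 7.53, 6.28, 7.55, 7.22 and 6.84 CPM in splenic CD8 (5.07 ± 0.10). Its kinase Cdk1 (4.21 ± 0.14), Top2a (3.34 ± 0.11), Mki67 (1.77 ± 0.18), Plk1 (4.55 ± 0.15) and Ube2c (4.59 ± 0.19) were higher. The exception was the condensin Smc4, at 522 ± 25.9 against 816 ± 29.1 CPM (-0.64 ± 0.04). The RNA does not tell how many cells were dividing.

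The regulators of entry into the cycle were mixed. Cdkn1a, the p21 inhibitor and a p53 target, stood at 47.7, 41.02, 26.7, 47.7 and 44.7 CPM in OP9 CD8 and at 0.112, 0, 0.145, 0 and 0 CPM in splenic CD8 (9.37 ± 0.29). Cdkn2b averaged 12.5 ± 1.08 CPM, with 1 count over the splenic libraries and a ratio of 910.0 with a 95% counting interval of 163 to 35975, and Cdkn2c was higher as well (2.48 ± 0.13). Cdkn1b, the p27 inhibitor of resting T cells, was lower (-1.22 ± 0.13), and so were Ccnd2 (-1.06 ± 0.06) and the pocket protein Rbl2 (-0.28 ± 0.11), while Ccnd3, the D cyclin of thymocytes, was called slightly higher (0.19 ± 0.07). Of 16 tested 11 were higher and 4 lower. Among the 11, 3 had under 10 splenic counts in all and were tested only because they were high in OP9 CD8.

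Growth-related genes were higher with smaller changes. Myc averaged 239.7 ± 5.7 CPM against 77.04 ± 9.5 (1.64 ± 0.08), and Mycn, its relative in progenitors, 6.15 ± 1.03 CPM with no splenic count (at least 29.2-fold higher). The nucleolar proteins Ncl (0.81 ± 0.04) and Npm1 (1.38 ± 0.03), the polyamine enzyme Odc1 (1.78 ± 0.09) and the Max partner Mxd3 (2.16 ± 0.21) were higher, and Ppan (-1.30 ± 0.07), Mxd1 (-0.98 ± 0.11) and Max (-0.60 ± 0.09) lower. In the Myc and ribosome biogenesis list 28 of 48 were higher and 11 lower, with a median of 0.27. Genes of cytosolic ribosomal proteins were higher in 77 of 79 cases and lower in 0, with a median of 0.81, and 15 were called at least 2-fold higher. Rplp0, a stalk protein, stood at 1875, 1861, 1826, 1923 and 1914 CPM against 915, 846, 856, 910.0 and 871 CPM (1.10 ± 0.03). Rps6 (0.59 ± 0.05), Rpl3 (0.94 ± 0.03) and Rps3 (0.80 ± 0.03) were higher, and the largest rises were in Rps27l (2.30 ± 0.10), also a p53 target, Rps14 (1.61 ± 0.07) and Rps26 (1.46 ± 0.07). Reads of ribosomal protein genes can also come from their many pseudogenes.

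Respiratory chain genes rose whether they lie in the nucleus or in mitochondrial DNA. Of 49 nuclear genes tested 45 were higher and 0 lower, with a median of 0.94. Ndufa9 of complex I (1.27 ± 0.06), Sdhb of complex II (1.07 ± 0.08), Cox4i1 of complex IV (1.45 ± 0.07), Atp5a1 of ATP synthase (1.05 ± 0.02) and cytochrome c (Cycs, 1.07 ± 0.09) were among them, with Ndufb7 (1.46 ± 0.10) and Cox5a (1.39 ± 0.08). All 13 mitochondrially encoded genes tested were higher, with a median of 1.28. The cytochrome b gene mt-Cytb stood at 3891, 3751, 3305, 3629 and 3033 CPM in OP9 CD8 and at 1705, 1605, 1387, 1236 and 1307 CPM in splenic CD8 (1.28 ± 0.11). The groups did not overlap for mt-Nd1 (1.18 ± 0.14), mt-Co1 (1.14 ± 0.14) or the ribosomal RNA gene mt-Rnr2 (1.58 ± 0.17).

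Glycolysis genes were higher in 26 of 35 cases and lower in 7, with a median of 0.96. Ldha, which makes lactate, stood at 2866, 2764, 2319, 2689 and 2943 CPM in OP9 CD8 and at 989.9, 1022, 994, 1004 and 1144 CPM in splenic CD8 (1.40 ± 0.07). Hk2, the inducible hexokinase, averaged 8.9 ± 2.5 CPM against 0.804 ± 0.189 (3.46 ± 0.24), and the glucose transporters Slc2a1 (0.99 ± 0.12) and Slc2a3 (0.42 ± 0.11) were higher. Of hypoxia-inducible genes on the list, Vegfa (6.93 ± 0.41), P4ha2 (5.83 ± 0.40) and Ndrg1 (2.88 ± 0.07) rose most, while Pdk1 (-1.14 ± 0.04) and P4ha1 (-0.83 ± 0.10) fell, as did the enolase Eno3 (-1.38 ± 0.11).

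Genes of cholesterol and fatty acid synthesis were higher in 31 of 37 cases and lower in 4, with a median of 1.29. Sqle, the squalene epoxidase of cholesterol synthesis, stood at 158, 152, 132, 140.3 and 146 CPM in OP9 CD8 and at 31.98, 26.1, 28.3, 32.2 and 32.6 CPM in splenic CD8 (2.27 ± 0.08). Fasn (1.55 ± 0.06), which makes fatty acids, Idi1 (2.72 ± 0.16) and the desaturase Scd2 (3.36 ± 0.12) were higher. The exporter Abca1, which sterol-loaded cells raise, was lower (-3.62 ± 0.78), with Mylip (-0.65 ± 0.15), a ubiquitin ligase, and Insig2 (-0.41 ± 0.12).

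The amino acid response gave the clearest rise of a single metabolic enzyme. Asns, asparagine synthetase, stood at 226, 219, 209.8, 229 and 235 CPM in the 5 OP9 CD8 libraries and at 0, 0, 0, 0.249 and 0.175 CPM in the splenic libraries, a change of 11.27 ± 0.35 with an adjusted p of 2.51e-17. Of 40 genes tested on this list, 37 were higher and 3 lower, with a median of 1.49. Asns was among 5 of the 37 that had under 10 splenic counts in all and were tested only because they were high in OP9 CD8. Stc2, a secreted stanniocalcin, averaged 21.4 ± 1.93 CPM against 0.143 ± 0.183 (6.97 ± 0.41), the transporter Slc1a4 12.3 ± 3.25 against 0.234 ± 0.21 (5.82 ± 0.47) and the pseudokinase Trib3 14.2 ± 2.65 against 1.77 ± 0.524 (2.999 ± 0.25). Atf4, the factor that drives the response mainly through its translation, changed by 0.28 ± 0.08. The 3 lower genes were Ddit3 (-1.54 ± 0.15), the gene of CHOP, Ddit4 (-2.02 ± 0.14), an inhibitor of mTORC1, and the glutamine transporter Slc1a5 (-1.81 ± 0.06).

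The core of the amino acid response element bound by Atf4 with its partners, searched as TGATGNAA on both strands in the same 300-base windows, was found in 11 of 31 promoters of the list (35.5%), against 2.74% of tested genes. The 11 genes with a match were higher in OP9 CD8, but so were 29 of the 31 with a promoter. The list was made of known response genes, so the share describes the list and was no test. Asns (chr6:7693210-7693409, minus strand) and Chac1 (chr2:119351042-119351241, plus strand), a glutathione-degrading enzyme of the response, are printed over the last 200 bases before their starts in GRCm38.p6, 5′ to 3′ on the gene's own strand, with the match in capitals. The match in Asns began 23 bases before the start, and that in Chac1, on the other strand, 193 bases before it. Chac1, shown for its motif after its values were seen, averaged 8.48 ± 1.64 CPM in OP9 CD8 and had no splenic count (at least 40.2-fold higher).
Asns: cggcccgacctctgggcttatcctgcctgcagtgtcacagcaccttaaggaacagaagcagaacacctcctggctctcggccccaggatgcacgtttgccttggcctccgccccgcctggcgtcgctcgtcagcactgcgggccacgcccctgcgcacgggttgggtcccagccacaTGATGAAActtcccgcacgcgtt
Chac1: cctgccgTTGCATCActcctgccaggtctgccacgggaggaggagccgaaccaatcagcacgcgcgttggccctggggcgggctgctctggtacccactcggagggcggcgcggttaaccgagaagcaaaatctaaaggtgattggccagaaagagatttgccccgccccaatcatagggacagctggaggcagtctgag

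Of the other motifs searched in the same windows, the sterol regulatory core TCACNCCAC was found in 1 of 26 promoters of the cholesterol list (3.85%), against 1.41% of tested genes. The E box CACGTG was found in 11 of 40 promoters of the Myc and ribosome biogenesis list (27.5%), against 12.1%. It lay in 5 of 22 promoters of higher genes of that list and in 3 of 10 of lower genes. These shares describe the lists too and were no test.

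Chaperones of the endoplasmic reticulum and targets of the unfolded protein response were higher in 24 of 27 cases and lower in 1, with a median of 1.40. Hspa5, the chaperone BiP, stood at 2109, 1929, 1964, 2035 and 2101 CPM in OP9 CD8 and at 736, 717, 771, 818 and 806 CPM in splenic CD8 (1.40 ± 0.04). Xbp1 (1.49 ± 0.09), Sdf2l1 (2.39 ± 0.12), Hyou1 (2.02 ± 0.11) and Pdia6 (2.01 ± 0.05) were higher, the ubiquitin ligase Syvn1 lower (-0.77 ± 0.06), and Dnajb9 did not pass, at 18.8 ± 2.79 against 20.2 ± 2.69 CPM (adjusted p = 0.48). Of 27 oxidative stress genes tested, 21 were higher and 5 lower, with a median of 0.92. Haem oxygenase (Hmox1, 3.35 ± 0.58), glutathione reductase (Gsr, 2.23 ± 0.07), Prdx4 (2.44 ± 0.21), Txnrd1 (1.05 ± 0.05) and Gclm (0.96 ± 0.06) were higher, and Gclc (-1.31 ± 0.12), the catalytic partner of Gclm, was lower with Keap1 (-0.59 ± 0.06) and Gpx4 (-0.43 ± 0.07). Nqo1 was at 0.887 ± 0.53 against 0.544 ± 0.167 CPM (adjusted p = 0.17).

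Among p53 targets and Bcl2 relatives, 15 of 28 were higher and 7 lower. Besides Cdkn1a, the p53 target Phlda3 (5.84 ± 0.37) was higher. Trp53 itself changed by 0.18 ± 0.04, its inhibitor Mdm2 by -0.15 ± 0.05 and Bcl2 by 0.26 ± 0.10. The call for Mdm2 was lost without OP9 CD8 replicate 1, 3, 4 or 5 or splenic replicate 1 or 4, at -0.15 to -0.12. The survival gene Mcl1 (-1.17 ± 0.06), the death receptor Fas (-1.70 ± 0.12) and Sesn1 (-1.21 ± 0.06) were lower.

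Several genes of fetal and progenitor haematopoiesis were higher in OP9 CD8, some of them with no splenic count and others with a low splenic level. Lin28b, the RNA-binding protein of fetal lymphopoiesis, stood at 14.3, 20.9, 8.12, 12.3 and 10.7 CPM in OP9 CD8 with no splenic count (at least 62.9-fold higher). Igf2bp3, a partner of Lin28b in fetal progenitors, averaged 103 ± 5.96 CPM against 5.48 ± 0.836 (4.23 ± 0.10). Kit, the stem cell factor receptor, averaged 47.4 ± 7.52 CPM against 0.353 ± 0.243 (7.02 ± 0.46). Lin28a had no count in any of the 10 libraries, and Hmga2 was too low to test. Arid3b was lower (-1.37 ± 0.09). Of 37 listed genes only 17 could be tested, and of these 15 were higher. Because a gene silent in splenic CD8 passes the filter only through OP9 CD8, that count is no measure of the list as a whole.

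Of the imprinted genes, H19 stood at 45.6, 47.4, 40.01, 48.6 and 41.9 CPM and Igf2, which shares its control region, at 26.7, 26.8, 18.3, 33.4 and 29.1 CPM in OP9 CD8, and neither had a splenic count (Igf2 at least 127-fold higher). Snrpn averaged 56.1 ± 9.36 CPM against 8.94 ± 0.47 (2.65 ± 0.11). Airn (-0.98 ± 0.25) and Kcnq1ot1 (-0.47 ± 0.24) were called lower with overlapping values, Kcnq1ot1 not without OP9 CD8 replicate 1 or 5 (-0.34 for each). Meg3 and Dlk1, of another imprinted cluster, were near 0 in both groups, with 0.38 ± 0.271 CPM of Dlk1 in OP9 CD8. In all 12 of 37 imprinted genes could be tested, 5 higher and 3 lower. H19 and Igf2, 2 of the 5, were tested only because they were high in OP9 CD8. Among writers and readers of DNA methylation and Polycomb marks 9 of 30 were higher and 16 lower. Dnmt1 (0.87 ± 0.08), Dnmt3b (2.06 ± 0.15) and Ezh2 (1.49 ± 0.08) were higher with the replication genes, and Dnmt3a (-0.44 ± 0.09), Tet1 (-1.82 ± 0.25), Tet2 (-1.13 ± 0.20), Ezh1 (-1.62 ± 0.12) and Cbx7 (-2.18 ± 0.16) were lower.

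**Figure D4:**
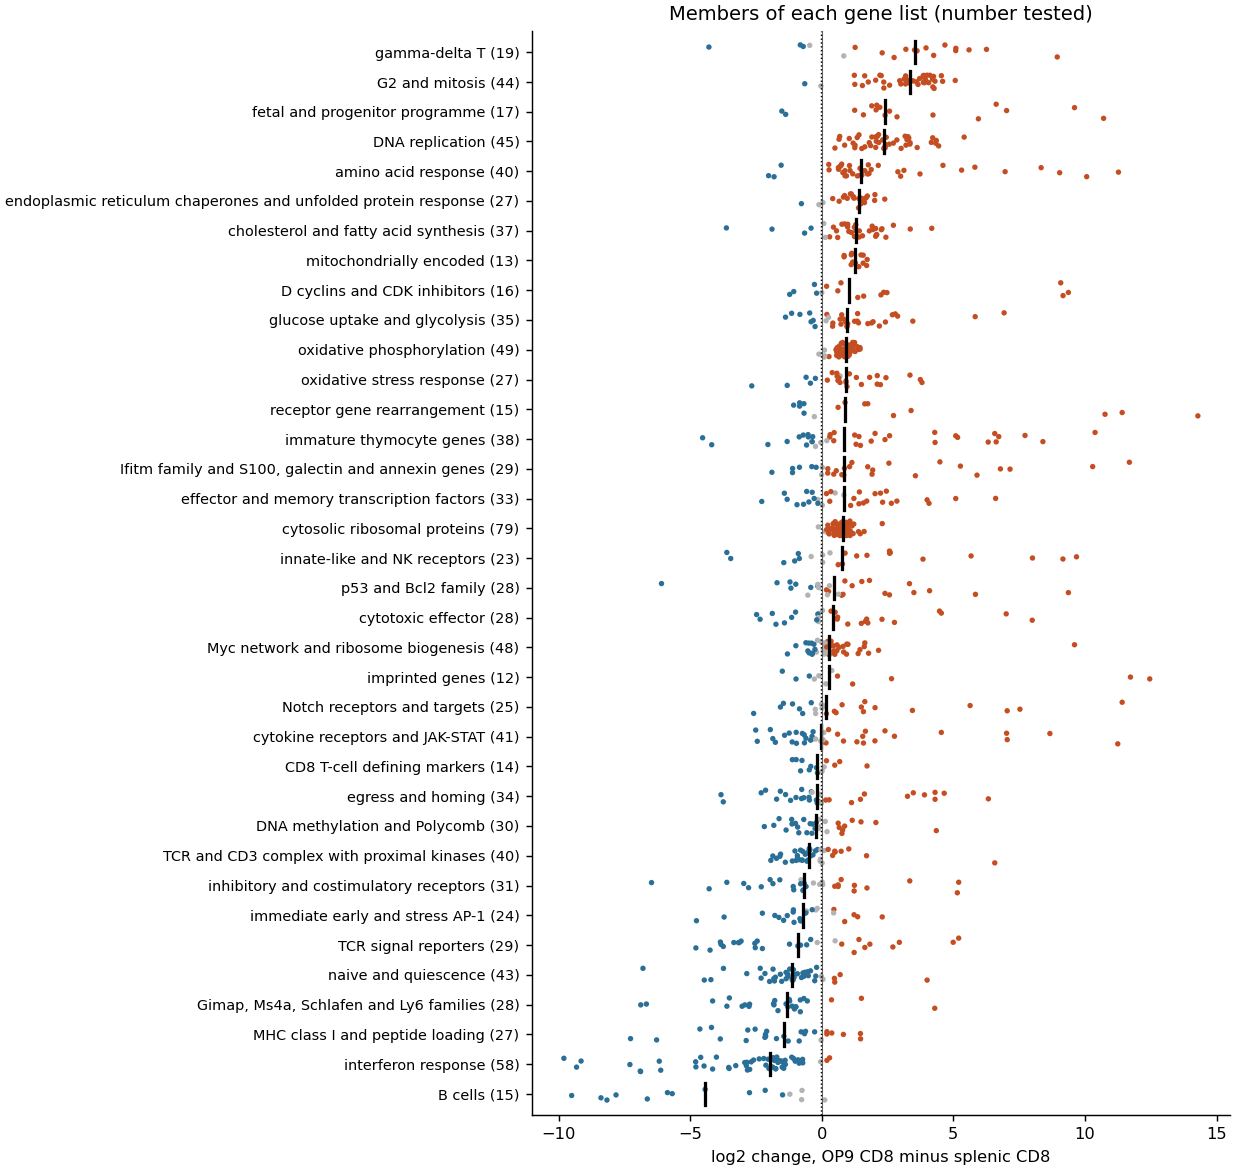
Each point is a tested member of a gene list, placed by its log2 change (OP9 CD8 minus splenic CD8) on the x axis, orange if called higher, blue if called lower and grey otherwise. The black bar is the list's median and the dotted line the median of all genes tested, -0.04. The interferon list lies lowest among lists with more than 15 genes tested, and the gamma-delta and mitosis lists highest, at 3.53 and 3.37. The B-cell list, with 15 genes tested, lies lower than the interferon list. Members that splenic or OP9 CD8 does not express lie at the ends, where the fitted change depends on a prior count.

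When tested genes were placed on chromosomes by their symbols (RefSeq, GRCm38.p6, 94.3% of genes placed), chromosome 8 differed from the others. Over its 488 genes with a mean of at least 10 CPM, the median log2 change was 0.53, with quartiles of -0.08 and 1.09. The medians of the other autosomes and of X ran from -0.29 (chromosome 17) to 0.17 (X). Of 667 tested genes on chromosome 8, 378 were higher, which is 56.7% against 30.2% to 44.6% on the other chromosomes, and 150 were lower. Measured in single libraries as the median difference from the splenic mean, chromosome 8 stood at 0.49 to 0.51 in all 5 OP9 CD8 libraries and at -0.03 to 0.03 in the splenic libraries, which make up that mean. By the same measure the 3 DP libraries, from the same source of stem cells by label, stood at 0.49 to 0.55. The iRTE libraries, also from Pmel stem cells, stood at 0.50 for replicate 4 and at 0.04 to 0.10 for the other 4. All of these values share the splenic reference. Copy number was not measured, and its part in these differences was not tested.

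**Figure D5:**
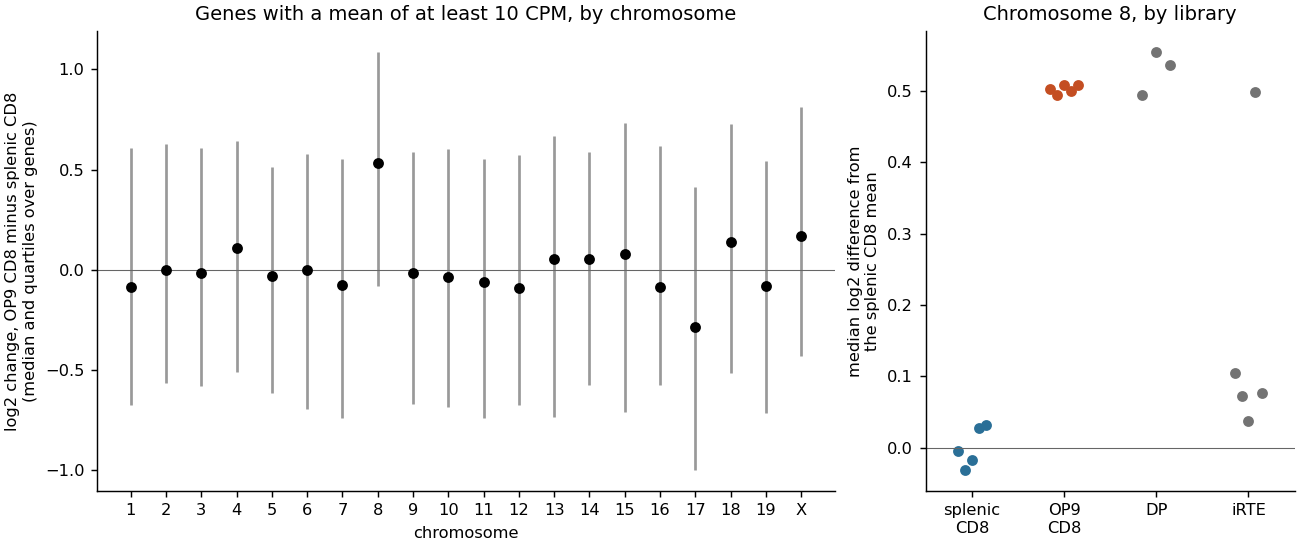
On the left, the median log2 change (point) and quartiles (bars) over genes with a mean of at least 10 CPM, for each chromosome. On the right, the chromosome 8 median of each library as a log2 difference from the splenic CD8 mean, 1 point per library. Chromosome 8 stands at 0.53 while the others lie between -0.29 and 0.17, and all OP9 CD8 and DP libraries and 1 of 5 iRTE libraries stand near 0.5.

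Markers of other cells were looked for in both groups. Erythroid genes were present in splenic CD8: their summed level was 176 to 227 CPM there and 1.33 to 2.79 in OP9 CD8, and all 5 tested were lower in OP9 CD8. Among the 5, 2 had under 10 OP9 CD8 counts in all and were tested only because they were high in splenic CD8. The globin gene Hbb-bs stood at 83.05, 101, 84.9, 95.1 and 78.9 CPM in splenic CD8 and averaged 0.172 ± 0.122 CPM in OP9 CD8, and Hba-a1 averaged 70.6 ± 8.12 against 0.148 ± 0.0787 CPM. B-cell genes summed to 842 to 1047 CPM in splenic CD8 and 793 to 929.7 in OP9 CD8, but a single gene carried these sums: Ighm, the constant region of IgM, was at 869 ± 54.02 CPM in OP9 CD8 and 803 ± 59.4 in splenic CD8 (adjusted p = 0.0823, but called higher, at 0.15, without OP9 CD8 replicate 4 or splenic replicate 5). Without it the other 17 genes summed to 81.7 to 144 CPM in splenic CD8 and 9.28 to 22.7 in OP9 CD8. Of the list 11 of 15 tested were lower, and Ms4a1, at 2.66 ± 1.07 CPM in splenic CD8, had no count in OP9 CD8. It was among 5 of the 11 that had under 10 OP9 CD8 counts in all and were tested only because they were high in splenic CD8. The MHC class II chaperone Cd74 averaged 0.523 ± 0.454 against 30.7 ± 11.6 CPM. Whether RNA of such cells bears on other genes that were lower in OP9 CD8 was not tested.

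Of 22 stromal genes, 6 had enough counts to test. The collagen genes were low and uneven. Col1a2 stood at 1.14, 3.02, 0, 2.11 and 3.27 CPM in OP9 CD8 and Col3a1 at 0, 0, 0, 0 and 2.95 CPM, and neither had a splenic count. The OP9 CD8 mean of Col1a2 was 9.06-fold above the floor, but the gene was too low to test and replicate 3 had no count. Col1a1 averaged 0.255 ± 0.419 CPM in OP9 CD8 and 0.314 ± 0.294 in splenic CD8, and Pdgfra had no count in either. The chemokine gene Cxcl12 stood at 1.33, 1.86, 0.431, 0.529 and 2.9 CPM in OP9 CD8 with no splenic count. Acta2, a smooth muscle actin, was higher, at 1.14 ± 0.383 CPM against 0.164 ± 0.157 (2.83 ± 0.45), as were S100a6 (5.90 ± 0.10) and Pdgfrb (2.83 ± 0.19), which are not restricted to stroma. Vcam1 was lower, from 1.22 ± 0.484 CPM to no count. Tagln was called lower from overlapping values (-0.67 ± 0.33), a call lost without OP9 CD8 or splenic replicate 1, 2, 3 or 4, at -0.73 to -0.46. Whether stromal RNA bears on other genes that were higher in OP9 CD8 was not tested. Among myeloid markers Lyz2 was lower, from 5.09 ± 3.48 to 0.567 ± 0.951 CPM with overlapping values, Tlr2 was higher (0.73 ± 0.15), and Csf1r and Cd14 were too low to test. Of pluripotency genes Nanog, Sox2 and Zfp42 had no count in any library and Pou5f1 averaged 0.0211 ± 0.0473 CPM in OP9 CD8 and 0.0175 ± 0.0392 in splenic CD8. Of the mast cell genes, Mcpt4, Cma1, Mcpt8 and Fcer1a had no count in any library, Cpa3, a mast cell carboxypeptidase, was at 2.66 ± 2.31 CPM in OP9 CD8 and 3.11 ± 0.552 in splenic CD8 (adjusted p = 0.67), and Kit, given above, was higher. Of the platelet genes, Pf4 and Ppbp were without a count in OP9 CD8 and Itga2b was lower (-3.11 ± 0.56), Gp1ba was at 1.24 ± 0.817 against 0.434 ± 0.28 CPM (adjusted p = 0.0672, but called higher, at 1.79, without OP9 CD8 replicate 5), and the integrin chain Itgb3, which other cells express too, was higher, at 176 ± 24.7 against 43.9 ± 7.06 CPM (1.996 ± 0.14).

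Some abundant genes stood at the same level in both groups. By smallest absolute change among genes with at least 200 CPM in each group, these were Cmtm6, a stabiliser of PD-L1 (252 ± 6.98 CPM in OP9 CD8 and 253 ± 10.2 in splenic CD8), Fgfr1op2 (260.3 ± 7.89 and 261 ± 9.45), the ubiquitin ligase adaptor Spop (216 ± 5.76 and 217 ± 10.2), Fam120a (226 ± 19.7 and 227 ± 20.7), Gapvd1 (234 ± 15.8 and 233 ± 19.6) and the exchange factor Spata13 (315 ± 35.7 and 317 ± 41.1). They were picked for this likeness, so the values are a description.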

How the data were processed

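Reads were aligned with STAR 2.4.2 to mm9 and counted with Subread by the authors, per the submitters' processing notes; for strand settings and annotation no source was at hand. The authors deposited raw counts per gene for each library, which were the values tested, and a log2 table of 17765 genes. That deposited log2 table equalled edgeR's log2 CPM with a prior count of 2 to within 5.33e-14 and was used only for that check.

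Libraries were grouped by title. The 10 libraries were scaled by the trimmed mean of M values, low genes removed with edgeR's default filter, and groups compared with edgeR 4.0.16's quasi-likelihood test in R 4.3.3, with Benjamini-Hochberg adjustment over 12795 genes. The same steps were tested on simulated counts. Alternatives were other scalings, filters, DESeq2 1.42.0, limma 3.58.1 (voom), all 18 libraries, a replicate block and each library left out. The group comparison and gene lists were chosen with earlier results of these data known. Genes were named by these rules: the 12 largest changes each way with at least 10 CPM and no overlap; 4 leading genes and up to 3 called members each way per list; the 6 smallest adjusted p each way at 2-fold or more; and 6 level genes of at least 200 CPM. Some genes that these rules select are not reported here, and others were named after their values were seen: Lig4, Xrcc5, Xrcc6, Ighm, Cxcl12, Acta2, Tagln, Vcam1 and Cpa3. Floors of 3 counts per library and intervals cover counting error only. Promoters came from RefSeq (GRCm38.p6), whose coordinates differ from mm9.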

Additional observations from a re-analysis of the deposited data

Results flagged for a closer look

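Within each group of 5 libraries, a value was singled out when its gap to its nearest neighbour exceeded 0.71 of the group's range, the 95% limit of Dixon's test. Chance flags about 1 in 20 groups. Over 580 groups tested (the genes named in the text, where every library held at least 3 counts, and the measures of the libraries), 29 were singled out, and 5 of these were due to OP9 CD8 replicate 5. OP9 CD8 replicate 1 was the extreme library for Cd69 (25.3 CPM, above 17.2 to 18.6 in the others), Mcm10 (113 CPM, above 76.7 to 86.1 in the others) and Rfng (13.7 CPM, below 16.5 to 17.5 in the others). OP9 CD8 replicate 2 was the extreme library for Cd226 (20.1 CPM, above 12.7 to 14.1 in the others). OP9 CD8 replicate 3 was the extreme library for Airn (9.54 CPM, above 3.7 to 4.96 in the others), Ddx3y (84.01 CPM, above 56.6 to 64.3 in the others) and Odc1 (179.8 CPM, below 214 to 220.3 in the others). OP9 CD8 replicate 4 was the extreme library for Il9r (15.6 CPM, below 19.4 to 20.8 in the others) and Tbx21 (22.4 CPM, above 14.05 to 16.4 in the others). OP9 CD8 replicate 5 was the extreme library for Cd28 (54.1 CPM, below 62.7 to 65.5 in the others), Cd8a (670.1 CPM, above 585 to 607 in the others), Fos (0.859 CPM, below 2.61 to 3.02 in the others) and Prkdc (66.3 CPM, below 86.8 to 93.99 in the others). splenic CD8 replicate 1 was the extreme library for Fos (3.4 CPM, below 3.67 to 3.77 in the others), Rps3 (686 CPM, above 621 to 631 in the others) and Vcam1 (2.07 CPM, above 0.871 to 1.18 in the others). splenic CD8 replicate 2 was the extreme library for Cmtm6 (270.4 CPM, above 246 to 253 in the others), Mki67 (19.3 CPM, below 33.9 to 37.5 in the others), Runx2 (1.1 CPM, below 2.51 to 2.89 in the others) and Tcf7 (1445 CPM, below 1485 to 1498 in the others). splenic CD8 replicate 4 was the extreme library for Egr1 (66.1 CPM, above 54.5 to 57.9 in the others), Hmox1 (3.67 CPM, above 0.29 to 0.803 in the others) and Mcm2 (111 CPM, above 99.1 to 102 in the others). splenic CD8 replicate 5 was the extreme library for Ldha (1144 CPM, above 989.9 to 1022 in the others), Ly6e (894 CPM, above 829.9 to 844 in the others), Pdia3 (869.7 CPM, above 763 to 780.1 in the others), Prf1 (79.9 CPM, above 57.5 to 63.95 in the others) and Xbp1 (140.2 CPM, above 111 to 119 in the others). OP9 CD8 replicate 5 also stood apart on the second principal component, at -50.4 against 6.92 to 21.6. The share of groups singled out is that expected by chance, and none of the values was left out.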

How the results depend on the processing

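The counts of higher and lower genes stayed within 1.5 times their value under 70 of 72 alternatives computed for them. Leaving out each library in turn gave 4683 to 4861 higher genes and 4805 to 4974 lower genes, and 2232 to 2336 and 2516 to 2651 at least 2-fold. With the filter raised to a mean of 10 CPM in whichever group was higher, at least 2-fold changes numbered 1392 higher and 1592 lower, since fewer genes were tested. Deviations of same-numbered libraries correlated weakly, at -0.02 to 0.07 over 5 pairs, and those of libraries with other numbers at -0.097 to 0.054. Of the 5 OP9 CD8 libraries, 3 correlated best with their own number. Whether the replicate numbers pair the libraries was not tested. With the replicate number as a block, 4739 genes were higher and 5009 lower, 2198 and 2589 of them at least 2-fold. Median-ratio scaling moved the median of all genes by 0.02 and total counts by -0.07.

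Of 5667 alternative values for 316 named genes tested, 5587 kept direction and call, 52 lost the call, 12 gained it, 14 changed sign and 2 moved beyond the spread. The sign changes were all in genes whose change had not passed: Klf2 stood at 0.012 with median-ratio scaling and 0.012 in DESeq2, and at -0.053 to 0.057 over the libraries left out in turn. Lck stood at -0.052 with total counts, at -0.012 with the 10 CPM minimum and at -0.011 to 0.068 over the libraries left out in turn, Il2rb over those at -0.059 to 0.030 and Cpa3 at -0.838 to 0.059. The values moved beyond the spread were those of Cmtm6 (-0.07) and Fgfr1op2 (-0.07) with total counts. Calls were lost chiefly with all 18 libraries in the fit, which raised the adjusted p of small changes such as Cd3e (-0.17), Trac (-0.21), Psmb8 (0.19), Atf4 (0.27) and Bcl2 (0.25). Total counts of 11132800 to 19305800 allow no statement on genes under 0.155 to 0.269 CPM, the level of 3 counts.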

Other observations

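The median change differed a little with gene length. When tested genes with a RefSeq span and a mean of at least 10 CPM were split by span into 5 classes of 1740 genes, the median log2 change (OP9 CD8 minus splenic CD8) was 0.18 in the class of shortest genes, 0.03, 0.06 and -0.03 in the middle classes, and -0.18 in the class of longest genes. The class of shortest genes held 75 of 77 cytosolic ribosomal protein genes and 31 of 49 nuclear respiratory chain genes in the split, whose lists had medians of 0.81 and 0.94. What part of either list's change goes with length was not tested.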
